A study of Homo sapiens with 24 samples.

Results

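Gene expression in AC16 cells given 5 µM digoxin and collected at T20 was set against untreated AC16 cells collected at T16, to tell transcripts that rose or were lost from T16 on from transcripts that only kept their T16 level while vehicle cells moved away from it. The comparison rests on 6 arrays of the 24 in the series, the 3 titled as T20 with 5 µM digoxin and the 3 titled as T16 and untreated. The 3 arrays of T20 vehicle stand beside them for many genes and lists, and the others are given against T16 only. AC16 is an immortalised human line derived in part from adult ventricular cardiomyocytes. All cells were synchronised with 100 nM dexamethasone, a synthetic glucocorticoid that aligns the clocks of cultured cells, and were then washed. The following kinds of culture are used here: T20 cells with 5 µM digoxin, T20 cells with vehicle, and T16 cells with neither, with T20 cells given 0.5 µM digoxin named where the lower dose is reported. T4 cells with 5 µM digoxin, T4 cells with vehicle and untreated T0 cells, 3 arrays each, are named where the same hours from another start are reported. The sample labels place the T20 collection 4 h after treatment, whereas the growth protocol counts 4, 16 and 20 h from treatment, which cannot hold for untreated T16 cells. Against T16, the passing of time, the vehicle and digoxin changed together and cannot be told apart in that difference alone. The labels do not say that replicates were separate cultures, so p-values cover only the spread among these samples, possibly a technical one.

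Digoxin is a cardiac glycoside that binds the sodium potassium pump, the ATPase that exports sodium and imports potassium, and pump inhibition raises sodium and, through sodium calcium exchange, calcium in the cell. Immediate early genes such as EGR1 and FOS are transcribed within minutes of a stimulus without new protein synthesis, and inflammatory genes such as CXCL8 and IL6 are driven largely by NF-kB and AP-1. After a dexamethasone pulse, PER, CRY, NR1D1 and BMAL1 transcripts cycle in cultured cells, so a comparison across hours of such cells holds clock movement as well as the response to a drug.

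A gene value was the median of the log2 values of the probe sets that the platform annotation gives to that 1 symbol. Differences are on the deposited log2 scale, positive where T20 digoxin was higher, with the standard error (SE) of a limma fit over all 24 arrays. Values existed for 22260 genes, and 11911 passed the filter on low values (a highest group mean of at least 6.02). A gene passed the test at an adjusted p under 0.05. Across genes, the digoxin arrays correlated with T16 arrays at 0.9646 to 0.9719, and arrays of 1 group with each other at 0.9799 to 0.9882. Of 18 cardiomyocyte markers, 3 lay above the filter (TNNC1, MYL2 and GATA4), while the troponin TNNT2, both heavy chains MYH6 and MYH7, and NKX2-5 lay below it. Of 10 fibroblast markers 9 lay above the filter, as did 4 of 6 smooth muscle, 1 of 7 endothelial and 0 of 4 leukocyte markers on the array. The cardiomyocyte label is therefore not borne out by most of these markers. The mean level of the fibroblast markers was 11.2 to 11.52 on digoxin arrays, 10.86 to 11.2 on vehicle arrays and 11.02 to 11.46 on T16 arrays.

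Of the 11911 genes, 1945 differed between T20 digoxin and T16 (16.3%). Of these, 1035 were higher under digoxin (8.69%) and 910 lower (7.64%), the rises reaching 6.11 and the falls -3.14. The rises had the longer tail. A difference beyond 1 was found for 512 rises and 420 falls, and beyond 2 for 91 rises and 24 falls. The median over all genes tested was -0.02. The split of higher and lower calls depended on the scaling of the arrays: 53.2% of calls were higher as reported, 21.4% with arrays scaled on their poly-A spike-in controls and 28.9% with hybridisation controls, which put the median of all genes at -0.29 and -0.21. The poly-A control level was 12.37, 12.17 and 11.88 on digoxin arrays, 11.43, 11.32 and 11.58 on vehicle arrays, and 11.96, 11.87 and 11.78 on T16 arrays. It was higher on every digoxin array than on any vehicle array, and overlapped between digoxin and T16. The hybridisation control level was 16.13, 15.92 and 15.94 on digoxin arrays, 15.22, 15.48 and 15.56 on vehicle arrays, and 15.71, 15.84 and 15.9 on T16 arrays. That level was higher on every digoxin array than on any vehicle or T16 array. The part of either control level in the results was not tested, and differences below are relative to the typical gene. With median polish in place of the median, 4160 genes passed. In bulk RNA, fewer cells of a kind and less RNA per cell cannot be told apart.

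Vehicle cells themselves differed from T16 in 933 genes (7.83%), 510 higher (4.28%) and 423 lower (3.55%). Digoxin differed from vehicle at T20 in 1363 genes (11.4%), 725 higher (6.09%) and 638 lower (5.36%). With poly-A scaling 2.41% of the calls between digoxin and vehicle were higher, against 53.2% as reported, and 96.8% of those between vehicle and T16, against 54.7%. These comparisons share arrays with the first, so the classes that follow are counts and carry no test. Of the 725 genes higher than vehicle, 391 had also risen over T16 (53.9%). Another 39 had kept the T16 level (5.38%), meaning that the 95% interval of digoxin minus T16 lay within 0.5 of 0. SIX4 alone lay below T16, and 294 (40.6%) could not be placed. Of the 638 genes lower than vehicle, 320 had also fallen below T16 (50.2%), 28 had kept its level (4.39%), 3 lay above T16 and 287 (45%) could not be placed. Among genes called against T16, 79 of the 1035 rises (7.63%) and 42 of the 910 falls (4.62%) stood alike in vehicle, with the 95% interval of digoxin minus vehicle within 0.5 of 0. At the median SE of 0.263 a 95% interval is too wide for either rule, even at a difference of 0. The kept and alike counts therefore depend on the spread and the margin as well as on the levels. A margin of 0.3 left 0 genes kept above vehicle and 1 below, and a margin of 0.75 left 144 and 114.

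The 12 largest rises over T16 were CXCL8, LIF, IL11, TNFAIP3, IL6, CCL20, CCN2, IL1A, SERPINB2, HBEGF, ADAMTS1 and DUSP1. They were chosen for this difference, so their sizes against T16 are descriptions. In each of the 12 every digoxin array lay above every vehicle array, and 11 of them passed against vehicle, where 6.09% of all genes were higher. Vehicle itself lay above T16 in 9 of the 12, where 4.28% of all genes did. These counts reuse the digoxin or T16 arrays by which the genes were chosen. That choice favours both counts, so the shares over all genes are no fair standard for them. In most of these genes vehicle cells stood above T16 and digoxin cells higher still.

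CXCL8, the neutrophil-attracting chemokine interleukin 8, had values of 14.66, 14.72 and 15.13 on the T20 digoxin arrays, 11.9, 11.94 and 10.41 on the T20 vehicle arrays, and 8.34, 9.04 and 8.79 on the T16 arrays. The 3 groups did not overlap, with digoxin highest and T16 lowest. The rise over T16 was 6.11 ± 0.33 (SE, n = 3 each; adjusted p = 7.78e-11), and each of its 6 probe sets was higher on every digoxin array than on any T16 array. Over vehicle the difference was 3.42 (adjusted p = 1.07e-06), and vehicle over T16 it was 2.69 (adjusted p = 4.27e-05).

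LIF, IL11 and IL6 encode cytokines that signal through the shared receptor chain gp130. LIF had values of 13.35, 12.88 and 13.11 under digoxin, 9.86, 9.26 and 8.6 in vehicle, and 7.24, 6.75 and 7.12 at T16, a rise of 6.08 ± 0.30 (adjusted p = 2.4e-11). IL11 had 14.38, 14.5 and 14.38 under digoxin, 11.06, 11.21 and 10.08 in vehicle, and 9.12, 8.83 and 8.97 at T16, a rise of 5.45 ± 0.28 (adjusted p = 2.9e-11). IL6 had 11.82, 11.71 and 12.03 under digoxin, 10.23, 9.7 and 10.08 in vehicle, and 7.04, 7.01 and 6.71 at T16, a rise of 4.94 ± 0.19 (adjusted p = 5.22e-13). The order digoxin, vehicle, T16 held without overlap in all 3 genes, but the share reached by vehicle differed. Vehicle stood 3.09 above T16 for IL6 and digoxin 1.85 above vehicle, whereas for LIF the differences were 2.20 and 3.87 and for IL11 1.81 and 3.64.

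TNFAIP3, the A20 protein that restrains NF-kB signalling, had values of 15.84, 15.86 and 15.79 under digoxin, 12.26, 12.34 and 11.78 in vehicle, and 10.78, 10.39 and 10.74 at T16. The digoxin arrays lay close together and far above both other groups, a rise of 5.19 ± 0.27 over T16 (adjusted p = 3.18e-11). CCN2, a matricellular protein of tissue repair, had 17.9, 18.0 and 18.07 under digoxin, 14.06, 13.94 and 13.28 in vehicle, and 13.44, 13.59 and 13.33 at T16. For CCN2 vehicle and T16 overlapped (vehicle minus T16 0.31, adjusted p = 0.444), so nearly all of its rise of 4.53 ± 0.22 lay between vehicle and digoxin. DUSP1, a phosphatase that inactivates MAP kinases, had 16.79, 16.91 and 17.07 under digoxin, 13.9, 13.93 and 13.78 in vehicle, and 12.88, 13.24 and 12.31 at T16, a rise of 4.11 ± 0.22 (adjusted p = 6.89e-11).

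The remaining rises ran from 4.13 to 4.73. IL1A, an alarm cytokine, had 9.76, 9.95 and 9.93 under digoxin, 6.87, 6.8 and 6.43 in vehicle, and 5.49, 5.48 and 5.15 at T16, without overlap. The rise was 4.51 ± 0.32, with 6 of its 7 probe sets higher on every digoxin array than on any T16 array and 1 lower on every digoxin array than on any T16 array. The T16 means of IL1A and CCL20 lay below the filter. CCL20, a chemokine for CCR6-bearing leukocytes, stood at 8.86, 8.5 and 9.07 under digoxin, against 6.1, 6.66 and 5.32 in vehicle and 4.09, 3.71 and 4.44 at T16, and its rise of 4.73 was 2.74 with median polish. ADAMTS1, a secreted metalloprotease, rose by 4.13 ± 0.24 over T16, with vehicle 1.94 above T16 and digoxin 2.19 above vehicle. HBEGF, a ligand of the EGF receptor, rose by 4.26 ± 0.54, with 3.47 of it over vehicle (adjusted p = 0.000209). SERPINB2, the inhibitor of plasminogen activators PAI-2, rose by 4.31 ± 0.70 over T16 (adjusted p = 0.000216). Its difference of 2.16 from vehicle did not pass (adjusted p = 0.052), and neither did that of vehicle from T16 (2.16, adjusted p = 0.0663). It was the most variable of the 12 on the digoxin arrays (11.21, 12.76 and 11.64).

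**Figure D1:**
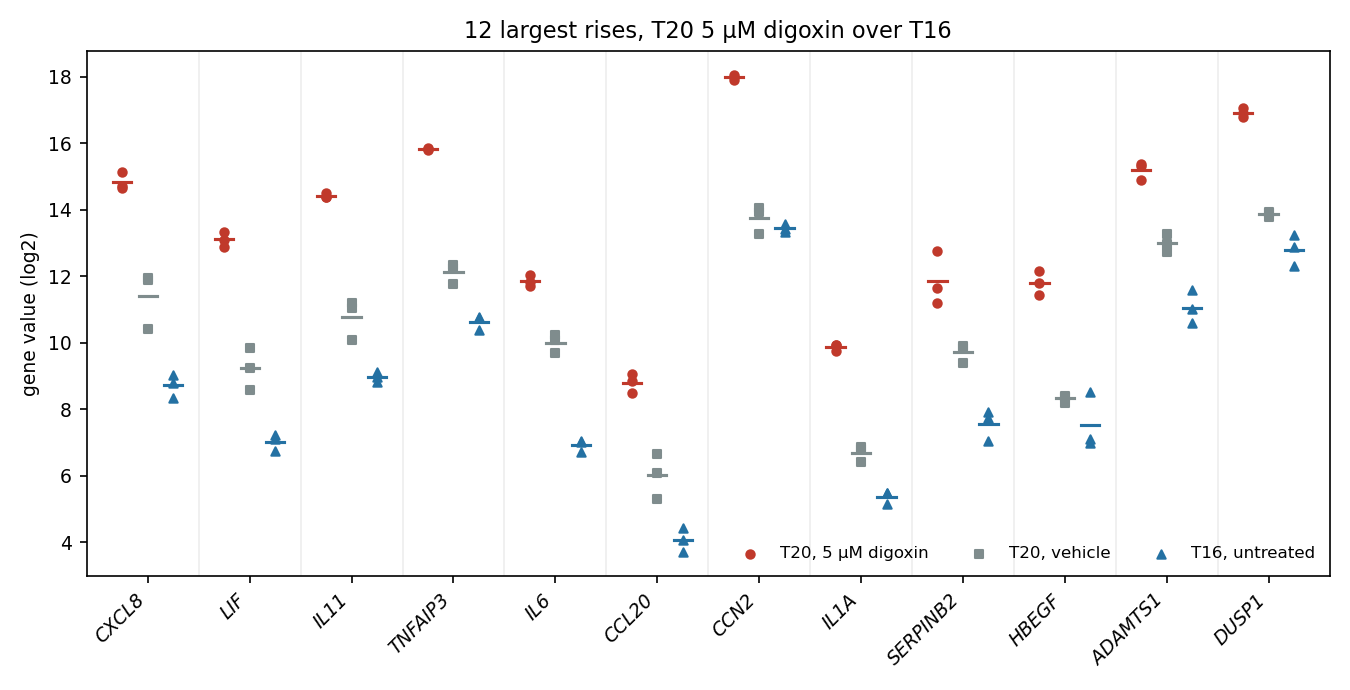
Gene values (log2, vertical axis) of the 12 largest rises over T16, 1 point per array and a bar at the mean of 3 arrays, for T20 with 5 µM digoxin, T20 vehicle and T16. Digoxin arrays lie above all vehicle arrays in each gene, and vehicle lies near T16 for CCN2 (0.31) but 3.09 above it for IL6.

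The promoters of 10 of these 12 genes were found in the RefSeq table (GRCh38.p14, 250 bases before to 50 after the start), which did not hold LIF and ADAMTS1. They were searched on both strands for the AP-1 motif TGANTCA, the CRE motif TGACGTCA, the E-box CACGTG and the serum response element (CC, A or T at each of the inner bases, GG). TGANTCA and TGACGTCA do not overlap as words. The promoters of CXCL8, IL11, TNFAIP3 and IL1A are shown because they are the largest rises that hold one of these motifs, with each match in capitals. CXCL8 lies at chr4:73740319-73740618 on the plus strand, IL11 at chr19:55370414-55370713 on the minus strand, TNFAIP3 at chr6:137867009-137867308 on the plus strand and IL1A at chr2:112784444-112784743 on the minus strand, and each is written 5′ to 3′ in the direction of its gene.
CXCL8: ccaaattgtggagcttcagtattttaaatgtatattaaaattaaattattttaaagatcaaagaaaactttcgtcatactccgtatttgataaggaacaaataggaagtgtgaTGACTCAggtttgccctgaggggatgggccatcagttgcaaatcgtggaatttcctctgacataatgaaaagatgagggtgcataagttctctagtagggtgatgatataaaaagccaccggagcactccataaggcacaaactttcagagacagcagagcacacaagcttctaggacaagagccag
IL11: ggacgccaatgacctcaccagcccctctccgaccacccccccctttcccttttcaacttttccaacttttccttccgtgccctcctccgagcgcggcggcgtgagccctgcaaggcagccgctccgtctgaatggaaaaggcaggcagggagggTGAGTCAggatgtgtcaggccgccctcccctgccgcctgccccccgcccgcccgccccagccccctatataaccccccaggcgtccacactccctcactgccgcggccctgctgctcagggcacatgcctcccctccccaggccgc
TNFAIP3: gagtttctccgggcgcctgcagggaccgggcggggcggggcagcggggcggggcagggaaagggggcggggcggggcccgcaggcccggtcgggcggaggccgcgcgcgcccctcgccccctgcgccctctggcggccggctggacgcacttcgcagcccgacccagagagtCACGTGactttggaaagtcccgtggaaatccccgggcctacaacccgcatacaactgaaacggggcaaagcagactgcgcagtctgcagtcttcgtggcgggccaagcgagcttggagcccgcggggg
IL1A: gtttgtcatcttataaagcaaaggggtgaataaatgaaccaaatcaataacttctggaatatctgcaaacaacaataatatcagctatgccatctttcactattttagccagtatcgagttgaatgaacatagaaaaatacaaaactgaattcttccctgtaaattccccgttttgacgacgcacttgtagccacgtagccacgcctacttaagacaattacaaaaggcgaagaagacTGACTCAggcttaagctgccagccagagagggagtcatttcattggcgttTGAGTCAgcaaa

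CXCL8 holds the AP-1 match TGACTCA from base -137 to -131 relative to the start, and IL11 holds TGAGTCA from -96 to -90. IL1A holds 2 AP-1 matches, from -12 to -6 and from 39 to 45, and TNFAIP3 holds an E-box from -78 to -73. DUSP1 holds a CRE match from -125 to -118 and an E-box from -108 to -103. Of the 10 promoters, 4 held an AP-1 match (the fourth is SERPINB2) and none a serum response element. Of all 27305 promoters of the table, 7.76% held AP-1, 7.43% an E-box, 1.98% a CRE and 1.29% a serum response element. Among the 9275 promoters of tested genes the shares were 4.43%, 10.5%, 3.35% and 1.01%. Among 320 promoters of genes higher than vehicle that had risen over T16 they were 7.81%, 14.7%, 5.62% and 1.88%. Among 270 promoters of genes lower than vehicle that had fallen below T16 they were 4.07%, 12.6%, 3.33% and 0.741%. Of the 9 promoters found for the 12 largest falls, 2 held an E-box and none held AP-1, a CRE or a serum response element. A match is a run of letters and does not show that a factor binds there.

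For the lists below, 8.69% of all genes were higher than T16 and 7.64% lower. Against vehicle these shares were 6.09% and 5.36%, and for vehicle against T16 4.28% and 3.55%. A count near its share is not a result about a list. Of 18 genes tested of the interleukin 6 family and interleukin genes, 13 rose over T16 and none fell (8.69% and 7.64% of all genes), with a list median of 1.19 against -0.02 over all genes. Vehicle was higher than T16 in 8 of them, and digoxin was higher than vehicle in 11, of which 9 had risen over T16 and 2 could not be placed. With poly-A scaling these counts were 12 and 7. CLCF1, another ligand of the gp130 family, rose by 3.58 over T16 and stood 2.04 above vehicle. Of 10 chemokines tested, 5 rose over T16 and none fell, and the same number was higher in vehicle than at T16. CXCL2, a neutrophil attractant, rose by 3.94 (2.13 with median polish) and CCL2, a monocyte attractant, by 2.26. CXCL12, a chemokine of stromal cells, went the other way against vehicle, with 12.47, 12.97 and 13.12 under digoxin, 14.31, 14.68 and 14.37 in vehicle, and 13.5, 13.7 and 13.01 at T16. It was below vehicle (-1.60, adjusted p = 0.000106), whereas its difference of -0.55 from T16 did not pass (adjusted p = 0.12).

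Of 24 NF-kB subunits, inhibitors and targets, 13 rose over T16 and none fell, with a median of 1.08, and vehicle was higher than T16 in 3, which was 11 with poly-A scaling and with median polish. PTGS2, the inducible cyclooxygenase, rose by 2.59, BIRC3, an inhibitor of apoptosis, by 2.77, and NFKBIA, the inhibitor IkB alpha, by 3.80 (2.34 with median polish). NFKBIA had 13.78, 13.2 and 13.99 under digoxin, 11.26, 11.01 and 11.08 in vehicle, and 10.83, 10.18 and 8.55 at T16. Digoxin arrays lay above both other groups, which did not overlap but whose difference of 1.26 did not pass (adjusted p = 0.0553). Growth factor ligands and receptors gave 10 rises and 1 fall among 16 and a median of 1.25. Digoxin was higher than vehicle in 5 of them and lower in none (median 0.38), against 2 higher and 3 lower with poly-A scaling (median -0.31). Vehicle was higher than T16 in 4 and lower in 1, against 9 and 0 with poly-A scaling. TGFB2, a ligand of the TGF-beta family, rose by 3.01 ± 0.17 and EDN1, the vasoconstrictor endothelin precursor, by 4.10 ± 0.37. The vehicle difference from T16 was 1.86 for TGFB2 and 1.71 for EDN1.

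Of 32 immediate early genes tested, 22 rose over T16 and 1, KLF2, fell, with a median of 1.27. Digoxin was higher than vehicle in 19, and all 19 had also risen over T16. The median was 1.08 for digoxin minus vehicle and 0.13 for vehicle minus T16, where 4 were higher and 3 lower. With poly-A scaling the order of these medians turned, to 0.39 with 13 higher for digoxin minus vehicle and 0.56 with 12 higher and 1 lower for vehicle minus T16. EGR1, a zinc finger transcription factor, had 17.61, 17.67 and 17.59 under digoxin, 13.49, 13.58 and 13.56 in vehicle, and 14.58, 14.07 and 14.49 at T16. Its 3 groups did not overlap, and vehicle was the lowest. EGR1 rose by 3.24 ± 0.18 over T16 (adjusted p = 1.14e-10), and stood 4.08 above vehicle, which was 0.84 below T16 (adjusted p = 0.0067). FOS, an AP-1 subunit, had 6.63, 7.75 and 7.45 under digoxin, 4.49, 4.32 and 4.72 in vehicle, and 4.68, 4.85 and 5.02 at T16. It rose by 2.43 ± 0.37, while vehicle and T16 overlapped. All vehicle and T16 arrays of FOS lay below the filter value of 6.02. IER3, an early gene of cell survival, rose by 2.94 and stood 1.13 above T16 in vehicle.

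Of 16 MAP kinase phosphatases and Sprouty genes, 9 rose over T16 and 1 fell, with a median of 1.18, and all 8 that were higher than vehicle had risen over T16. SPRY2, an inhibitor of receptor tyrosine kinase signalling, rose by 2.31 with vehicle 0.16 above T16. SPRY1, of the same family, fell by 1.01 (adjusted p = 0.0183), with 5.52, 5.75 and 5.47 under digoxin, 5.76, 4.52 and 4.84 in vehicle, and 6.99, 6.11 and 6.68 at T16. Its vehicle arrays also lay below T16 (-1.55, adjusted p = 0.00186). All digoxin and vehicle arrays of SPRY1 lay below the filter value of 6.02. Of 18 glucocorticoid targets 9 rose over T16 and none fell, and all 9 were higher than vehicle, in which 1 was higher and 2 were lower than at T16. With poly-A scaling 9 were higher and 6 lower than vehicle, and vehicle was higher than T16 in 4 and lower in 0. SLC19A2, a thiamine transporter, rose by 2.64. BCL6, a transcriptional repressor, had 13.71, 13.47 and 13.92 under digoxin, 10.95, 11.31 and 10.97 in vehicle, and 12.21, 11.91 and 12.5 at T16, so that digoxin lay above T16 by 1.49 and vehicle below it by 1.12. DUSP1 stands in the immediate early, phosphatase, glucocorticoid and CREB lists, and NFKBIA in 2 of the lists named so far, so their counts are not independent.

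**Figure D2:**
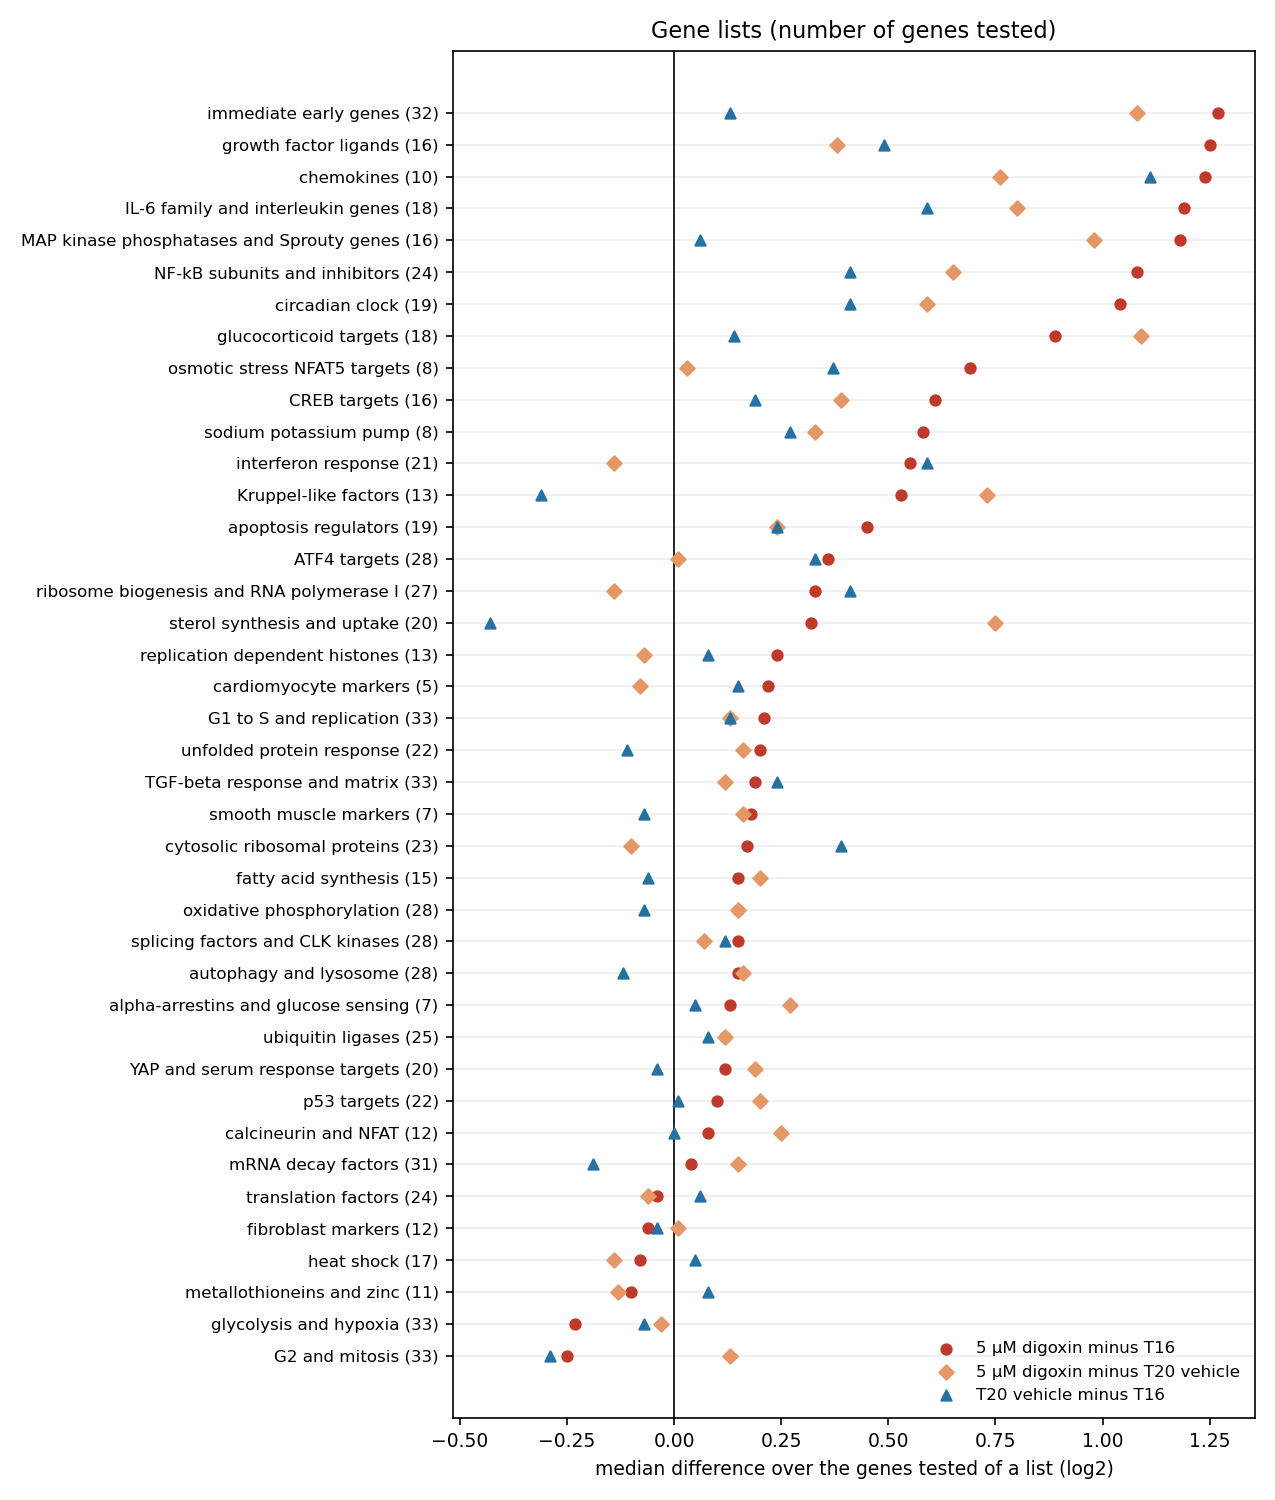
Median difference (log2, horizontal axis) over the tested genes of each list with 5 or more, the number tested in brackets, for T20 digoxin minus T16 (circles), T20 digoxin minus T20 vehicle (diamonds) and T20 vehicle minus T16 (triangles). Immediate early genes stand highest against T16 (1.27), sterol genes stand at 0.32 against T16 and 0.75 against vehicle, and genes of G2 and mitosis lowest (-0.25).

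Clock genes separated into members that moved in vehicle as well and members whose digoxin level left both vehicle and T16. Of 19 tested, 11 rose over T16 and 1 fell, with a median of 1.04, and vehicle against T16 gave 6 higher and 3 lower. PER2, a repressor of the clock, had 9.04, 8.78 and 8.11 under digoxin, 8.12, 7.13 and 7.9 in vehicle, and 4.54, 5.3 and 4.34 at T16. It rose by 3.92 ± 0.45 over T16 (adjusted p = 4.07e-06), with vehicle 2.99 above T16 and a difference of 0.93 from vehicle that did not pass (adjusted p = 0.205). The T16 mean of PER2 (4.72) lay below the filter of 6.02, so the sizes against T16 are measured from a value under it. PER3 rose by 2.15 ± 0.37, with 0.08 between digoxin and vehicle, and CRY1, a partner of PER proteins, by 1.46 ± 0.21 with vehicle 1.80 above T16. BMAL1, the activator partner of CLOCK, was the only fall, with 9.17, 9.27 and 8.78 under digoxin, 9.23, 9.0 and 9.34 in vehicle, and 10.26, 11.07 and 11.48 at T16. It fell by 1.86 ± 0.28 (adjusted p = 0.000104), and digoxin and vehicle arrays overlapped (-0.12).

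PER1 and NR1D1 did not follow vehicle. PER1, which is both a clock repressor and a glucocorticoid target, had 10.65, 10.58 and 11.34 under digoxin, 7.35, 7.8 and 8.36 in vehicle, and 8.14, 7.51 and 8.85 at T16. It rose by 2.69 ± 0.36 over T16 (adjusted p = 2.56e-05), while vehicle and T16 overlapped (-0.33, adjusted p = 0.632). NR1D1, the repressor REV-ERB alpha, had 10.76, 11.56 and 11.29 under digoxin, 7.41, 7.22 and 7.32 in vehicle, and 9.45, 8.97 and 9.77 at T16, with no overlap among the 3 groups. It rose by 1.80 ± 0.27 over T16 (adjusted p = 9.29e-05) while vehicle fell by 2.08 below it (adjusted p = 7.25e-05), so that digoxin stood 3.88 above vehicle. At 0.5 µM its difference from T16 was -0.10 (adjusted p = 0.874), against a rise of 1.55 for PER1 (adjusted p = 0.00858).

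BHLHE40, a repressor of CLOCK targets, rose by 2.32 ± 0.23 over T16, and TEF, a leucine zipper activator of clock output, by 1.81 ± 0.18. In both, digoxin exceeded vehicle (1.12 and 0.74) and vehicle exceeded T16 (1.20 and 1.07). NR1D2, the paralog of NR1D1, rose by 1.17, CRY2 by 1.00, BHLHE41 by 1.10 and CIART by 1.04. The T16 means of TEF (5.1) and CRY2 (5.61) lay below the filter. NFIL3, a repressor of clock output, had 12.94, 12.84 and 12.86 under digoxin, 12.07, 11.6 and 11.71 in vehicle, and 12.79, 12.49 and 12.54 at T16. It was 1.09 above vehicle (adjusted p = 0.000139), and its difference of 0.27 from T16 did not pass (adjusted p = 0.287). DBP, the activator of the same output sites, was 0.94 below vehicle (adjusted p = 0.0448), a call lost with values as deposited and with array median centring, and -0.21 from T16 (adjusted p = 0.705). CLOCK differed by -0.23 from T16 (adjusted p = 0.352). Of 7 clock genes higher than vehicle, 6 had risen over T16 and 1 could not be placed; with poly-A scaling 2 were higher and 6 lower than vehicle. RORA, RORB and HLF lay below the filter.

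**Figure D3:**
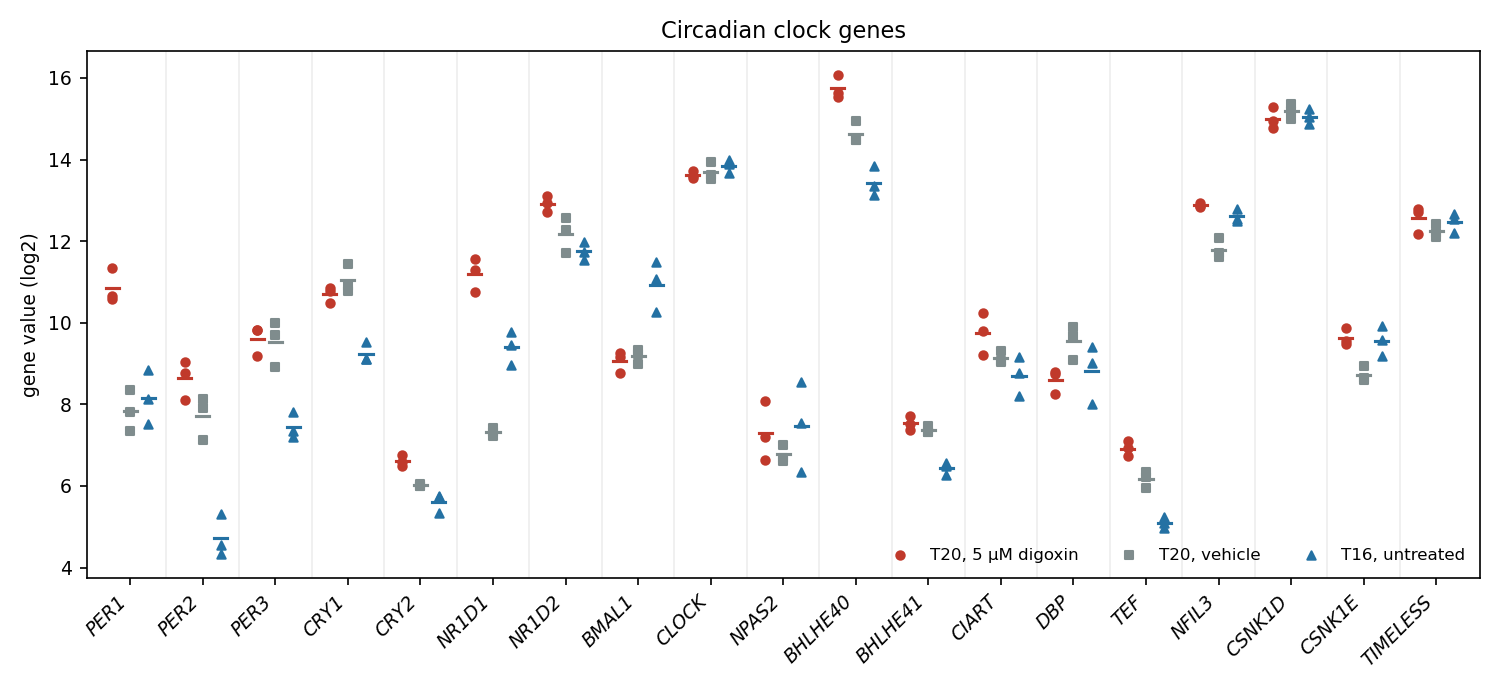
Gene values (log2, vertical axis) of the 19 clock genes tested, 1 point per array and a bar at the mean of 3 arrays, for T20 with 5 µM digoxin, T20 vehicle and T16. Digoxin and vehicle arrays overlap, away from T16, for PER2, PER3, CRY1 and BMAL1, and their means lie 3.88 apart for NR1D1 and 3.02 apart for PER1. No clock gene met the rule for being alike in vehicle, but for PER2, PER3 and BMAL1 the SE was too large to meet it at any difference.

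Of 8 genes tested in the list of the sodium potassium pump and its regulators, 3 rose over T16 and none fell, and 1 rose with poly-A scaling or hybridisation controls. SGK1, a kinase that raises sodium transport, had 10.6, 10.29 and 11.46 under digoxin, 8.24, 7.6 and 5.87 in vehicle, and 6.58, 6.98 and 7.01 at T16. Digoxin lay above both other groups, which overlapped, and the rise over T16 was 3.92 ± 0.48 (adjusted p = 8.79e-06). SLC12A2, the sodium potassium chloride cotransporter NKCC1, rose by 0.67 and NFAT5, the transcription factor of osmotic stress, by 0.59 (adjusted p = 0.0456). Neither differed from vehicle at the threshold (0.49 and 0.17). Of the pump's beta subunits, ATP1B1 differed from T16 by 0.75 (adjusted p = 0.08) and ATP1B3 by 0.23 (adjusted p = 0.814), the digoxin arrays of ATP1B3 spreading over 12.25, 13.84 and 14.07. The alpha subunits that bind digoxin had no probe set of their own symbol alone and were not analysed here. Of 8 osmotic stress targets of NFAT5, 4 rose and none fell (2 rose with poly-A scaling), and 2 were higher than vehicle, against 0 higher and 4 lower with poly-A scaling. The rises included the amino acid transporter SLC38A2 (0.98) and the inositol transporter SLC5A3 (1.01).

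Sterol genes passed against vehicle more often than against T16, where a missed threshold does not show a kept level. Of 20 tested, 11 were higher than vehicle and none lower (median 0.75), but 2 rose over T16 and none fell (median 0.32), and vehicle was lower than T16 in 3 (median -0.43). Of the 11, 2 had risen over T16 and 9 could not be placed, none meeting the rule for kept. With poly-A scaling 3 were higher than vehicle and none differed between vehicle and T16. With median polish 10 were higher than vehicle and 6 rose over T16. STARD4, a sterol carrier, had 15.61, 15.51 and 15.32 under digoxin, 14.35, 14.11 and 14.25 in vehicle, and 14.29, 14.44 and 14.45 at T16. It rose by 1.09 ± 0.16 over T16 (adjusted p = 5.62e-05; 0.71 with median polish), and vehicle and T16 overlapped. SC5D, a sterol desaturase, rose by 0.96 (adjusted p = 0.0107).

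HMGCS1, the synthase at the head of the pathway, had 16.13, 16.02 and 16.19 under digoxin, 14.58, 14.71 and 15.35 in vehicle, and 15.74, 15.37 and 16.24 at T16. Digoxin and T16 overlapped, with a difference of 0.33 whose 95% interval ran from -0.20 to 0.86, and vehicle lay below both. INSIG1, which holds back activation of sterol synthesis, had 17.49, 17.2 and 17.07 under digoxin, 16.03, 15.33 and 15.76 in vehicle, and 16.4, 16.44 and 16.74 at T16. It stood 1.55 above vehicle (adjusted p = 0.000866), and its difference of 0.73 from T16 missed the threshold (adjusted p = 0.0803), with an interval of 0.15 to 1.31, but passed with median polish (0.73, adjusted p = 2.44e-06). FDFT1, squalene synthase, stood 2.01 above vehicle, which was 1.36 below T16, and differed from T16 by 0.65 (adjusted p = 0.213; -0.14 with median polish).

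The 12 kept genes named by size were of mixed function. Of the 39 kept above vehicle, the largest differences from vehicle were in GARRE1, a Rac-binding protein (1.00), MIB1, a ubiquitin ligase of Notch ligands (0.96), EIF3I, a subunit of a translation initiation complex (0.95), AHSA1, an activator of the chaperone HSP90 (0.91), HELZ, an RNA helicase (0.86), and SP4, a transcription factor (0.82). GARRE1 had 11.32, 11.29 and 11.39 under digoxin, 10.17, 10.48 and 10.34 in vehicle, and 11.31, 11.15 and 11.38 at T16. Digoxin and T16 overlapped and vehicle lay below both, with digoxin minus T16 at 0.05 (adjusted p = 0.872). MIB1 had 13.29, 13.08 and 13.28 under digoxin, 12.47, 12.13 and 12.18 in vehicle, and 13.16, 12.93 and 13.57 at T16.

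Of the 28 kept below vehicle, the largest differences from vehicle were in SNHG12, a host gene of small nucleolar RNAs (-1.23), AZIN1, which stabilises polyamine synthesis (-0.91), DDX42, a splicing helicase (-0.89), ORC5, a subunit of the origin recognition complex (-0.89), APEX2, a repair endonuclease (-0.86), and NIPA2, a magnesium transporter (-0.83). DDX42 had 14.65, 14.66 and 14.77 under digoxin, 15.62, 15.48 and 15.66 in vehicle, and 14.58, 14.75 and 14.76 at T16. SNHG12 had 11.74, 11.8 and 11.98 under digoxin, 12.84, 13.34 and 13.04 in vehicle, and 11.88, 12.14 and 11.93 at T16. In both genes digoxin and T16 overlapped and vehicle alone was higher. The class is sensitive to single arrays and to scaling: with 1 array left out at a time it held 12 to 29 genes above vehicle and 9 to 23 below, and with poly-A scaling it held 0 and 180. ORC5 differed from T16 by 0.29 with median polish (adjusted p = 0.0196). Every digoxin array of NIPA2 lay below every T16 array (-0.16), although its interval met the rule for kept. Probe sets of 1 kept gene could differ from each other, from -1.06 to 1.67 against T16 for AHSA1 and from -2.95 to 0.58 for AZIN1.

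**Figure D4:**
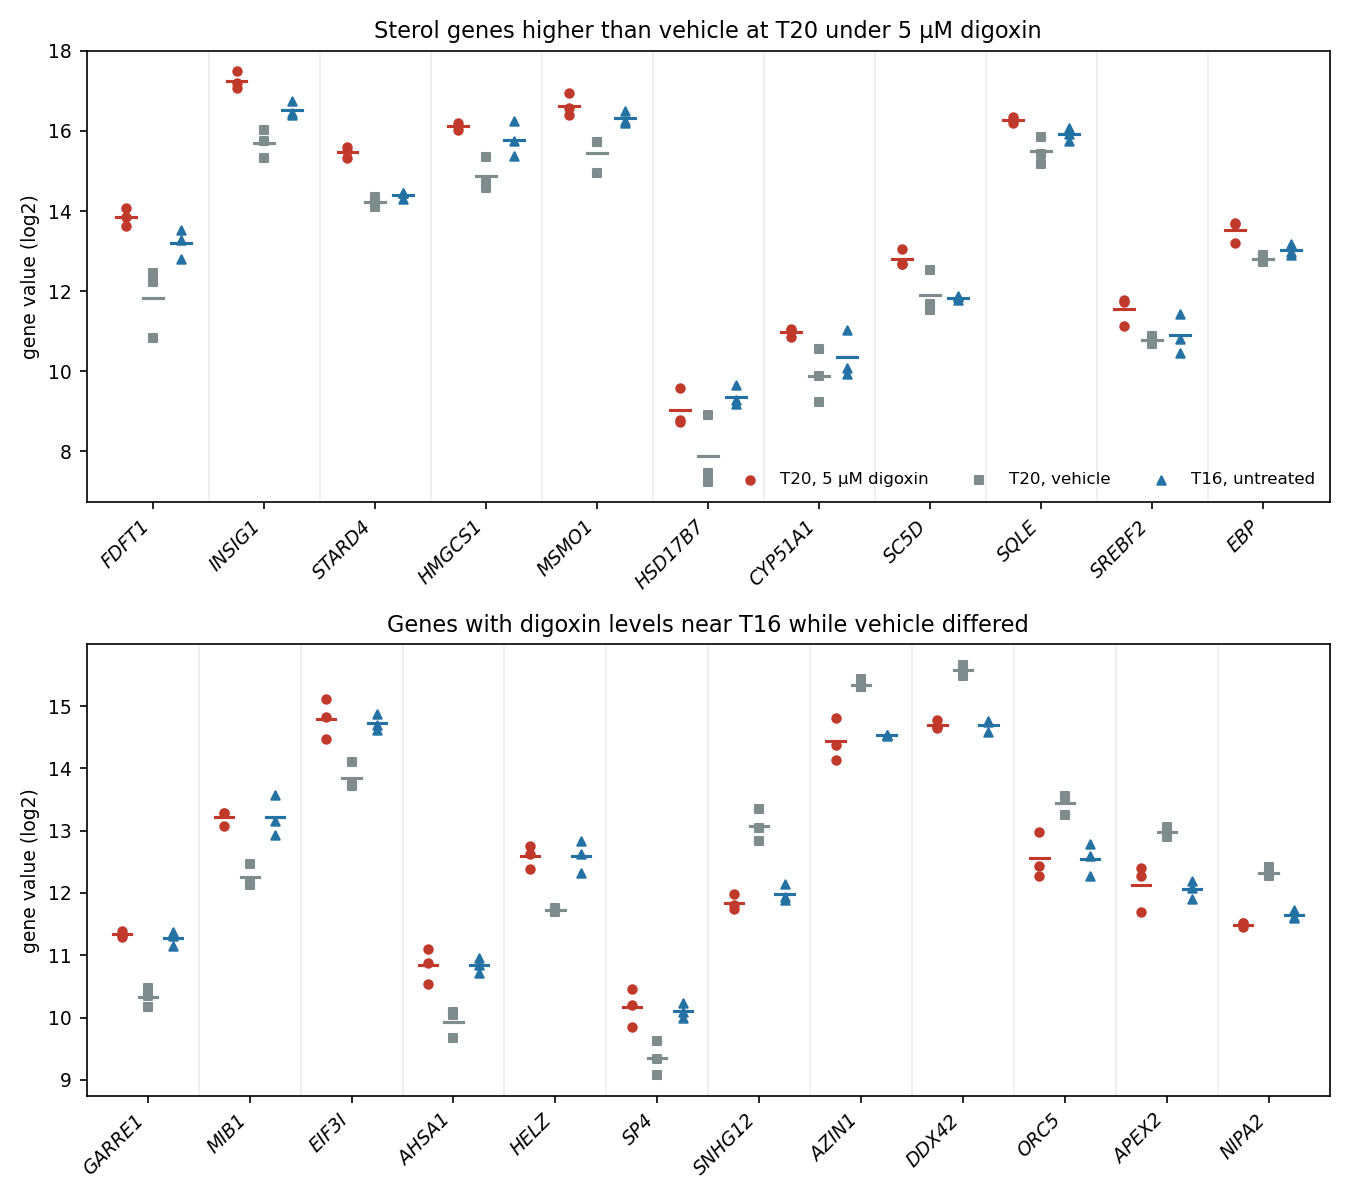
Gene values (log2, vertical axes), 1 point per array and a bar at the mean of 3 arrays, for T20 with 5 µM digoxin, T20 vehicle and T16. The upper panel holds the 11 sterol genes higher than vehicle, of which STARD4 and SC5D rose over T16, and the lower panel 6 genes kept above vehicle (GARRE1 to SP4) and 6 kept below it (SNHG12 to NIPA2).

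Another set of changes from T16 was found alike in vehicle. Being alike is relative to the typical gene. With poly-A scaling the median of digoxin minus vehicle over all genes was -0.68, against 0.02 as reported. TNFRSF11B, the decoy receptor osteoprotegerin, had 12.76, 12.99 and 12.84 under digoxin, 12.9, 12.73 and 12.88 in vehicle, and 10.65, 10.8 and 11.31 at T16. It rose by 1.94 ± 0.19 over T16 (adjusted p = 4.73e-07), with 0.03 between digoxin and vehicle. DDAH1, which degrades an inhibitor of nitric oxide synthase, rose by 1.65 (0.80 with median polish), the amino acid transporter SLC7A6 by 1.49, the signalling protein WNT5A by 1.42 and RRP1, a factor of ribosomal RNA processing, by 1.38 (0.47 with median polish). Falls of this kind were TRERF1, a transcriptional regulator (-1.59), the tRNA methyltransferase paralog TRMT1L (-1.37), LURAP1 (-1.21; -0.78 with median polish; its means of 5.17 under digoxin and 5.31 in vehicle lay below the filter, which it passed at T16), SMARCA2, an ATPase of chromatin remodelling (-1.10; -0.72 with median polish), and DUSP18 (-1.05). TRERF1 had 9.33, 9.37 and 9.85 under digoxin, 9.72, 9.55 and 9.24 in vehicle, and 11.12, 11.2 and 11.01 at T16, so that digoxin and vehicle overlapped below T16.

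Amino acid transporters of the ATF4 list were among the changes found in vehicle too. Of 28 ATF4 targets, 9 rose over T16 and 1 fell (median 0.36), and vehicle against T16 gave 7 higher and 1 lower (13 and 1 with poly-A scaling). SLC3A2, the shared heavy chain of several transporters, had 14.69, 14.96 and 14.74 under digoxin, 14.96, 14.99 and 14.97 in vehicle, and 12.94, 13.09 and 12.44 at T16. It rose by 1.98 ± 0.20 over T16 (1.26 with median polish), with -0.17 between digoxin and vehicle. SLC7A5, its leucine transporting partner, rose by 1.63 with vehicle 1.96 above T16. PPP1R15A, which restores translation after stress, differed in that digoxin exceeded vehicle as well: it rose by 2.80 ± 0.22 over T16 and stood 1.53 above vehicle. CHAC1, which degrades glutathione, was the only fall of the list. CHAC1 had 6.49, 7.31 and 5.9 under digoxin, 8.95, 8.99 and 9.58 in vehicle, and 8.62, 7.87 and 7.33 at T16, a fall of 1.38 ± 0.36 (adjusted p = 0.0111; -0.85 with median polish) that left it 2.61 below vehicle.

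Several matrix genes were higher in vehicle as well. Of 33 genes of the TGF-beta response and matrix, 8 rose over T16 and none fell, with a median of 0.19 that was -0.07 with poly-A scaling, and 9 were higher and 1 lower in vehicle than at T16 (16 and 0 with poly-A scaling). THBS1, the matrix protein thrombospondin, rose by 2.60 ± 0.20, with vehicle 2.19 above T16 and a difference of 0.42 from vehicle that did not pass (adjusted p = 0.207). SKIL, a repressor of SMAD signalling, rose by 1.94, the protease inhibitor TIMP3 by 1.59 (1.05 with median polish) and the hyaluronan synthase HAS2 by 1.57. ID3, an inhibitor of helix-loop-helix factors, had 9.8, 10.21 and 10.55 under digoxin, 12.16, 12.31 and 12.33 in vehicle, and 10.21, 10.04 and 9.34 at T16. Digoxin and T16 overlapped (0.32, adjusted p = 0.508), while vehicle lay 2.40 above T16 and digoxin 2.08 below vehicle. Of 20 YAP and serum response targets, 5 rose and 1 fell (median 0.12, and -0.15 with poly-A scaling), among them CCN2, SRF (1.96), CCN1 (1.32) and the kinase LATS2 (1.79).

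A few genes lay between T16 and vehicle. SLC30A1, a zinc exporter, had 13.78, 13.48 and 13.56 under digoxin, 14.25, 14.35 and 14.16 in vehicle, and 11.82, 12.2 and 11.75 at T16. It rose by 1.68 ± 0.19 over T16 and stood 0.65 below vehicle (adjusted p = 0.0281). SLC41A2, a magnesium transporter, rose by 1.23 (0.80 with median polish) and stood 1.00 below vehicle, and NCOA5, a nuclear receptor coregulator, rose by 0.91 (0.46 with median polish) and stood 1.02 below vehicle. SIX4, a homeobox factor, was the 1 gene with the reverse order: it fell by 0.66 below T16 (adjusted p = 0.0425) and stood 0.98 above vehicle. The SIX4 fall did not pass without digoxin replicate 1 (-0.41, adjusted p = 0.243) or without any of the T16 replicates (-0.75 to -0.54), and was also lost without the filter on low values, with array median centring and in a fit of only the 3 groups.

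Falls below T16 were smaller than rises in their extremes, and the largest were of mixed function. The 12 largest were KLF2, EEF2K, KBTBD7, MOCS2, VIPAS39, ZFP90, CPT1C, PPP6R2, RHOBTB2, GAPDH, ZSCAN30 and FBXO16. Of these, 11 were lower than vehicle (5.36% of all genes were), and vehicle was lower than T16 in 3 (3.55% of all genes) and higher in 1. Digoxin arrays lay below all vehicle arrays in 11, FBXO16 being the exception. The genes were chosen on digoxin and T16 arrays that these counts reuse. The choice favours counts below vehicle and below T16, so the shares over all genes are no fair standard.

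KLF2, a Kruppel-like transcription factor, had 6.03, 5.86 and 7.02 under digoxin, 7.86, 7.76 and 8.45 in vehicle, and 9.8, 9.25 and 9.26 at T16. The groups did not overlap, with vehicle between the others, and KLF2 fell by 3.14 ± 0.26 (adjusted p = 4.03e-08), 1.72 of it below vehicle. EEF2K, the kinase that slows translation elongation, had 7.6, 7.03 and 7.65 under digoxin, 9.62, 9.35 and 10.27 in vehicle, and 10.39, 10.19 and 10.45 at T16, a fall of 2.92 ± 0.25 (adjusted p = 5.13e-08) with no overlap of arrays in 17 of its 18 probe sets. MOCS2, an enzyme of molybdenum cofactor synthesis, had 11.52, 12.89 and 11.48 under digoxin, 14.66, 14.79 and 14.94 in vehicle, and 14.75, 14.66 and 14.62 at T16. For MOCS2 vehicle and T16 overlapped (0.12, adjusted p = 0.844), and the fall of 2.71 ± 0.27 stood against both.

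VIPAS39, a vesicle sorting protein, fell by 2.53 ± 0.28, ZFP90, a zinc finger protein, by 2.44 ± 0.21, CPT1C, a carnitine palmitoyltransferase isoform, by 2.35 ± 0.28, and PPP6R2, a regulatory subunit of protein phosphatase 6, by 2.34 ± 0.43. CPT1C and PPP6R2 stood 2.13 and 1.99 below vehicle, and neither differed between vehicle and T16 at the threshold. ZFP90 went the other way in its shares, with vehicle 1.74 below T16 and digoxin 0.70 below vehicle. Median polish gave smaller falls for RHOBTB2, an atypical small GTPase (-2.34, and -1.43 with polish), ZSCAN30, a zinc finger protein (-2.29, and -1.38 with polish), and KBTBD7, an adaptor of a ubiquitin ligase (-2.72, and -1.28 with polish). KBTBD7 had 4.8, 4.61 and 4.52 under digoxin, 6.89, 5.62 and 5.31 in vehicle, and 6.88, 6.35 and 8.85 at T16, and its difference from vehicle did not pass (-1.30, adjusted p = 0.197). The digoxin and vehicle means of KBTBD7 (4.64 and 5.94) lay below the filter, which it passed at T16, so the size of its fall is measured against a value under the filter.

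GAPDH and FBXO16 rested on how probe sets were combined. GAPDH, a glycolytic enzyme often used as a standard, had 8.93, 9.49 and 10.11 under digoxin, 13.04, 13.24 and 13.25 in vehicle, and 11.88, 11.44 and 12.1 at T16, a fall of 2.30 ± 0.29 by the median of 14 probe sets. With median polish the difference was -0.24 (adjusted p = 0.0747), and its probe sets differed from T16 by -4.14 to 0.01. Of its probe sets 5 were lower on every digoxin array than on any T16 array, and a share of 0.36 lay near the top of the scale. GAPDH also has near-identical pseudogenes, whose part in its values was not tested. FBXO16, an F-box protein whose digoxin mean lay below the filter, fell by 2.22 ± 0.59 (adjusted p = 0.0132), with 4.47, 4.5 and 6.96 under digoxin, 6.41, 7.37 and 8.04 in vehicle, and 7.56, 7.55 and 7.49 at T16. Its difference was 0.19 with median polish, and the call was lost without digoxin replicate 1 (-1.80, adjusted p = 0.0791) or replicate 2 (-1.82, adjusted p = 0.0726).

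**Figure D5:**
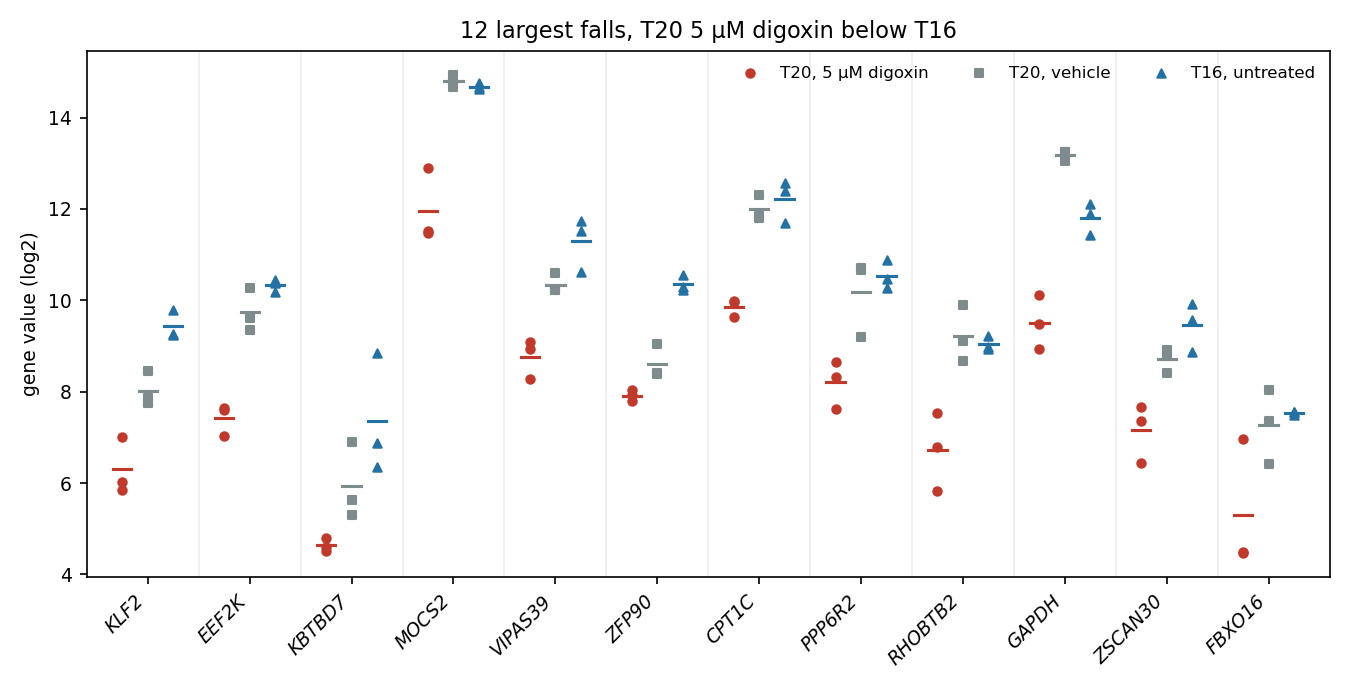
Gene values (log2, vertical axis) of the 12 largest falls below T16, 1 point per array and a bar at the mean of 3 arrays, for T20 with 5 µM digoxin, T20 vehicle and T16. Vehicle lies with T16 for MOCS2 (0.12) and between the others for KLF2, and digoxin arrays overlap with vehicle in FBXO16 alone of the 12.

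Of 24 translation factors 2 rose and 3 fell against T16 (8.69% and 7.64% of all genes). Their median was -0.04, and 0.02 with array median centring. EIF5, the GTPase activator of translation initiation, had 11.63, 11.01 and 11.68 under digoxin, 14.22, 14.65 and 14.5 in vehicle, and 13.25, 13.96 and 12.81 at T16. Its groups did not overlap, with vehicle highest, and it fell by 1.90 ± 0.26 below T16 (adjusted p = 2.91e-05) and stood 3.02 below vehicle. The alpha-arrestins diverged from each other. ARRDC4 rose by 3.36 ± 0.36 and TXNIP, the thioredoxin-interacting relative, by 1.61 ± 0.15, whereas ARRDC3 fell by 1.43 ± 0.29 (-0.90 with median polish), and in all 3 vehicle differed from T16 by 0.30 or less. Their list of 7 had 2 rises and 1 fall, with a median of 0.13 that was -0.13 with poly-A scaling. Among 13 Kruppel-like factors, 5 rose and 2 fell (median 0.53), the rises including KLF5 (2.09), KLF10 (1.70) and KLF11 (1.39; 0.82 with median polish). In this list vehicle was higher than T16 in 1 and lower in 5, against 3 and 1 with poly-A scaling.

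Of 33 genes of G2 and mitosis, 11 fell below T16 and none rose (median -0.25). Vehicle was lower than T16 in 6 and higher in none (median -0.29), a count that became 1 lower and 2 higher with poly-A scaling. Digoxin was higher than vehicle in 1 and lower in 2 (median 0.13), against 0 higher and 20 lower with poly-A scaling (median -0.56). CDC20, an activator of the anaphase-promoting complex, had 16.5, 16.25 and 16.49 under digoxin, 16.77, 16.92 and 16.96 in vehicle, and 17.17, 17.37 and 17.32 at T16. Its groups did not overlap, and it fell by 0.87 ± 0.14 (adjusted p = 0.000255). CDC25C, a phosphatase that starts mitosis, fell by 1.05, KIF20A, a mitotic kinesin, by 0.89 and PLK1, a mitotic kinase, by 0.70 (-0.37 with median polish). Of 33 genes of the G1 to S transition and replication, 10 rose over T16 and 2 fell, with a median of 0.21 that was -0.06 with poly-A scaling. CDC25A, a phosphatase that opens S phase, had 12.61, 12.41 and 12.6 under digoxin, 11.63, 11.84 and 11.66 in vehicle, and 10.3, 10.63 and 10.21 at T16, a rise of 2.16 ± 0.16 (adjusted p = 5.61e-09). E2F8 rose by 1.95 (1.28 with median polish), E2F3 by 1.81 (1.21 with median polish) and E2F7 by 0.91, all transcription factors of the cell cycle.

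Stress and death genes gave mixed counts, beside 8.69% of all genes higher than T16 and 7.64% lower. Of 22 p53 targets 5 rose over T16 and none fell (median 0.10, and -0.17 with poly-A scaling), led by PMAIP1, the pro-apoptotic protein NOXA (2.57), GADD45A, a growth arrest gene (2.70), and the kinase PLK3 (1.80). Of 19 apoptosis regulators 5 rose and 1 fell (median 0.45), with a rise of the survival protein MCL1 (1.78) and a fall of CASP8, an initiator caspase (-1.33; -0.86 with median polish). Of 22 genes of the unfolded protein response 2 rose and 1 fell (median 0.20, and -0.07 with poly-A scaling), the rises being the stress sensor ERN1 (1.27; 0.77 with median polish) and its substrate XBP1 (0.93; 0.48 with median polish). Of 17 heat shock genes 1 rose and 2 fell (median -0.08). That rise, HSPE1 (1.39), was -0.40 with median polish, and the falls were the cochaperones BAG3 (-0.81) and DNAJB1 (-0.63). Of 21 interferon response genes 5 rose and none fell (median 0.55), and 4 were higher in vehicle than at T16, but with poly-A scaling none rose and 1 fell, and 12 were higher in vehicle. Their members included IFI44 (0.89; 0.43 with median polish) and OAS2 (0.94).

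In RNA processing lists, 10 of 28 splicing factors and CLK kinases rose over T16 and none fell (median 0.15), which with poly-A scaling were 6 rises and 4 falls with a median of -0.12. CLK1, a kinase of splicing factors, had 12.19, 11.97 and 12.34 under digoxin, 10.39, 10.95 and 10.24 in vehicle, and 10.28, 10.23 and 10.41 at T16. It rose by 1.86 ± 0.22 (1.01 with median polish), and vehicle and T16 overlapped. CLK3, of the same family, had 14.52, 14.21 and 14.64 under digoxin, 12.59, 12.99 and 12.85 in vehicle, and 14.3, 13.95 and 14.56 at T16. Digoxin and T16 overlapped above vehicle, and the interval of their difference (-0.20 to 0.57) was too wide for the rule for kept. Of 31 mRNA decay factors 6 rose and 2 fell (median 0.04, and -0.23 with poly-A scaling), among the rises ZFP36, which binds AU-rich elements (1.10), and ZC3H12C (1.81). Of 27 genes of ribosome biogenesis 5 rose and none fell (median 0.33), which with poly-A scaling was 2 (median 0.06) and with median polish 14. Of 23 ribosomal protein genes, 1 rose and none fell (median 0.17, and -0.10 with poly-A scaling). Over all genes 8.69% rose and 7.64% fell.

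The remaining lists stand beside shares of 8.69% higher and 7.64% lower over all genes. Of 25 ubiquitin ligases 3 rose and 3 fell (median 0.12, and -0.15 with poly-A scaling), with NEDD4L higher by 2.12 (0.93 with median polish) and NHLRC1, the ligase malin, lower by 1.18. Of 28 oxidative phosphorylation genes 2 rose and none fell (median 0.15, and -0.12 with poly-A scaling), and of 33 genes of glycolysis and hypoxia none rose and 2, GAPDH and the hypoxia marker CA9 (-0.72; -0.37 with median polish), fell (median -0.23). Of 16 CREB targets 6 rose and none fell (median 0.61), of 13 replication-dependent histones 3 rose and none fell (median 0.24, and -0.03 with poly-A scaling), and of 28 autophagy and lysosome genes 3 rose and 2 fell (median 0.15, and -0.12 with poly-A scaling). Fatty acid synthesis had 1 rise and 1 fall of 15 (median 0.15, and -0.12 with poly-A scaling), calcineurin and NFAT genes 1 fall of 12 (median 0.08, and -0.19 with poly-A scaling), and metallothionein and zinc genes 2 rises of 11, SLC30A1 and MTF1 (median -0.10). In the longer marker lists 0 of 5 cardiomyocyte, 0 of 7 smooth muscle and 0 of 1 endothelial genes tested passed, and 1 of 12 fibroblast genes did, the collagen-binding proteoglycan DCN (-1.03; -0.27 with median polish). No leukocyte gene was tested.

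The lower dose was set beside the higher one as values only, since both share the T16 arrays. At 0.5 µM, 1115 genes differed from T16 (9.36%), 661 higher (5.55%) and 454 lower (3.81%). All 12 of the largest rises under 5 µM and 9 of the 12 largest falls also passed at 0.5 µM. CXCL8 stood 5.24 above T16 at 0.5 µM and 6.11 at 5 µM, LIF 4.28 and 6.08, TNFAIP3 3.41 and 5.19, and CCN2 2.94 and 4.53. PER2 gave 3.71 and 3.92, THBS1 2.31 and 2.60, and SGK1 4.70 and 3.92. Among falls, KLF2 gave -2.57 and -3.14, EEF2K -1.69 and -2.92, MOCS2 -1.32 and -2.71, and EIF5 -2.19 and -1.90. PPP6R2, ZSCAN30 and FBXO16 did not pass at 0.5 µM (-1.31, -1.27 and -0.45).

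The same hours from another start were given by T4 cells with 5 µM digoxin against untreated T0 cells, and the difference of the 2 differences was tested across all genes, where 519 passed (4.36%). It passed in 11 of the 12 largest rises and 1 of the 12 largest falls, genes that had been chosen for their size at T20. LIF, CCN2 and DUSP1 rose at T20, and at T4 digoxin was lower than T0 (-2.0, -3.32 and -2.07) but its mean was above that of T4 vehicle. The mean of LIF was 9.47 in T4 digoxin, 8.72 in T4 vehicle and 11.47 at T0, that of CCN2 15.38, 13.59 and 18.70, and that of DUSP1 15.60, 13.23 and 17.68. The T4 digoxin and T4 vehicle arrays overlapped for LIF. CXCL8 was 6.11 higher at T20 and 3.04 at T4, and IL6 4.94 and 2.64. ADAMTS1 gave 4.13 and 3.11, whose difference did not pass (adjusted p = 0.102). KLF2 fell by 3.14 at T20 and 2.31 at T4, EEF2K by 2.92 and 2.32, and MOCS2 by 2.71 and 2.18, and none of these differences passed (adjusted p = 0.251, 0.412 and 0.535).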

How the data were processed

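RNA of 24 AC16 samples in 8 groups of 3 was hybridised to Human Gene 2.0 ST arrays, 1 array each. The series' design text says that the authors used the Galaxy suite GIANT, normalising by Robust Multi-array Average. The submitters' processing notes name limma, and no version is stated in the sources used here. The deposited values are log2 values of 352859 probe sets and ran from 1.28 to 19.93, wider than a 16-bit scanner allows, so differences are not turned into linear folds.

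Array medians ran from 6.25 to 6.38, a range of 0.13 above the limit of 0.1, so probe sets were quantile normalised. Those with 1 gene symbol (259224) were kept, 1726 symbols were updated to RefSeq and 65 were not found there. Probe sets with several symbols (13116) or none listed (80519) were left out. A gene value was the median of its probe sets (10 at the middle gene). Genes with a highest group mean at or above 6.02, the median of gene values, entered a limma model (version 3.58.1, R 4.3.3; lmFit and eBayes, 1 coefficient per group, 16 residual and 4.01 prior degrees of freedom), two-sided, with Benjamini-Hochberg adjustment over 11911 genes in each of 6 comparisons. The number of arrays limits the precision to a median SE of 0.263. In 14 genes 50% or more of the probe sets lay at or above 19.5, near the top of the scale.

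The members of the comparison, the 42 gene lists and the naming rule were chosen with earlier results of these data known. The rule names the 12 largest rises and falls with no overlap of arrays and 3 or more probe sets, the 6 largest kept genes each way, the 5 largest alike in vehicle each way, genes between or beyond T16 and vehicle, all clock and pump genes and up to 4 genes of each other list by adjusted p. FOS, SPRY1, CXCL12, BCL6, HMGCS1, FDFT1, ID3, CHAC1 and CLK3 were named after their values were seen, as was the fifth and later gene of any list. Symbols of unnamed loci, LINC, MIR and small RNA genes, antisense genes and pseudogenes were passed over. Promoters came from RefSeq (GRCh38.p14) and were matched by symbol. The workflow was tested on simulated data. Alternatives were other summaries, filters, scalings, fits and thresholds, a replicate block and each of 9 arrays left out.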

Additional observations from a re-analysis of the deposited data

Results flagged for a closer look

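In 12 of the 24 largest rises and falls, the 5 µM digoxin difference of T20 from T16 departed from that of T4 from T0 by a test of the difference of the 2 differences (limma over all genes, adjusted p under 0.05, 4.36% of all genes). The genes had been chosen for their size at T20, which favours differences away from T4. On the log2 scale the T20 difference exceeded the T4 one by 8.08 in LIF, 7.85 in CCN2 and 6.19 in DUSP1, in which T4 digoxin was lower than T0 at an adjusted p under 0.05. It exceeded it by 4.65 in CCL20, 4.45 in HBEGF, 3.83 in SERPINB2, 3.78 in IL1A, 3.44 in IL11, 3.27 in TNFAIP3, 3.08 in CXCL8 and 2.29 in IL6. Among the falls, ZFP90 fell further at T20, by -1.33. Arrays of T20 digoxin, T20 vehicle and T16 were left out 1 at a time. The effect of this on the difference of the 2 differences was not examined, and T4 and T0 arrays were not left out.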

How the results depend on the processing

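Digoxin against T16 gave 1945 genes, digoxin against vehicle 1363 and vehicle against T16 933, and in that order median polish gave 4160, 3067 and 2683, the mean of probe sets 3547, 2665 and 2130, a fit of only the 3 groups 1249, 778 and 409, and a threshold for changes beyond 1 gave 104, 66 and 17. Scaling on poly-A controls gave 6096 for digoxin against vehicle and 2401 for vehicle against T16, and hybridisation controls 4479 and 2006; of the calls for digoxin against vehicle 2.41% and 3.8% were then higher, against 53.2%, and for vehicle against T16 96.8% and 95.7%, against 54.7%, and with values as deposited 44.4%. Without the filter vehicle against T16 gave 584. Leaving out 1 of 9 arrays gave 1347 to 1933, 913 to 1358 and 505 to 907 genes; vehicle against T16 fell furthest without T16 replicates 3 (505) and 1 (598) and vehicle replicate 2 (579).

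Genes risen over T16 (391), kept above vehicle (39), fallen (320) and kept below vehicle (28) were in that order 877, 432, 943 and 335 with median polish, 769, 344, 735 and 234 with the mean, 108, 0, 1559 and 180 on poly-A controls, 122, 1, 1044 and 145 on hybridisation controls, 251, 11, 180 and 9 with only the 3 groups, and 37, 0, 6 and 0 beyond 1. Without the filter the last 3 were 15, 208 and 16, and with the stricter filter 60 were kept above vehicle. An interval of 0.3 kept 0 and 1, and one of 0.75 kept 144 and 114. Leaving out 1 array gave 271 to 357, 12 to 29, 209 to 324 and 9 to 23, the lowest without digoxin replicate 1 (271, 209 and 9) and 2 (12). Genes kept above vehicle fell below a 1.5-fold margin without digoxin replicates 1, 2 and 3 (16, 12 and 13) and vehicle replicates 1 and 2 (23 and 20), and those kept below vehicle without digoxin replicates 1, 2 and 3 (9, 18 and 16) and T16 replicates 1 and 3 (16 and 18). FBXO16 reversed with median polish (0.19), as did ATP2A2 (0.32) and HSPE1 (-0.40, and -0.23 with the mean); the cause was not tested. Of 4725 values of named genes under these settings 4207 kept direction and side of the threshold. Replicate numbers did not pair the arrays (correlations of deviations from -0.08 to 0.04 over 9 pairs); a replicate block gave 1842, 1316 and 844 genes.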
